A study of Mus musculus with 36 samples.

Results

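The 37 mitochondrially encoded (mt) genes of the mouse were described in RNAseq libraries of primary cortical cells. They were chosen by symbol, as every entry of the count table whose GENCODE symbol begins with mt-, and are 37 of 55492 entries. No measured value entered that rule, but the group was picked for description with earlier results of the same table known. They comprise 13 protein-coding genes, 2 ribosomal RNA (rRNA) genes and 22 transfer RNA (tRNA) genes, all on chromosome M. The 13 protein-coding and the 2 rRNA genes passed the filter of a mean count above 5, and 0 of the 22 tRNA genes did.

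The cells were dissociated cortical cells of embryonic day 18 mice (C57EDCX), bought from a supplier. Control cultures received fresh medium. DEX cultures received 1 µM dexamethasone, an agonist of the glucocorticoid receptor, for 72 h, and DEX + RU-486 cultures received 1 µM dexamethasone with 1 µM mifepristone (RU-486), which blocks that receptor. Each of the 3 groups had 12 libraries, 6 in batch 1 and 6 in batch 2, and the labels give the RNA integrity number (RIN) of each library, a scale on which low values mean fragmented RNA. Libraries are called here by group and label number. No mutant strain or transgene was part of the comparison, and which cells of the mixed culture gave the RNA is not recorded. The labels state poly(A) selection, whereas the paper describes a total RNA library.

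The mitochondrial genome is a small circle that is transcribed from both strands into long precursors. These are cut at the tRNAs that punctuate them into rRNAs, messenger RNAs (mRNAs) and tRNAs. The 13 proteins are core subunits of complexes I, III and IV of the respiratory chain and of the ATP synthase, and the 2 rRNAs build the mitochondrial ribosome that translates them. Mitochondrial mRNAs carry short poly(A) tails, and for some of them the tail completes the stop codon. The rest of the respiratory chain is encoded in the nucleus. Copies of mitochondrial DNA inserted in nuclear chromosomes, called nuclear mitochondrial segments, can be nearly identical to the original.

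The following stretches are shown because they bear on what a count of these genes is. Sequences and positions are those of GENCODE M21 on GRCm38, the build that the files use. The annotated lengths of mt-Co3 (chrM:8607-9390, 784 bases), mt-Nd4 (chrM:10167-11544, 1378 bases) and mt-Cytb (chrM:14145-15288, 1144 bases) each leave 1 base over after whole codons, and those of the other 10 protein-coding genes leave 0. Their last 30 bases are given with that base in capitals, where the poly(A) tail supplies the rest of the stop codon.
mt-Co3: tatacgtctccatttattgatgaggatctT
mt-Nd4: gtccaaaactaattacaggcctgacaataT
mt-Cytb: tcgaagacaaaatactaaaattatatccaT

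A search of the annotated nuclear genes with blastn found copies of 7 protein-coding genes side by side on chromosome 1 (chr1:24611535-24616197), each at least 99.71% identical to its mt gene over the aligned bases. Gm10925 (chr1:24613974-24614651) has no mismatch to mt-Atp6 over 678 bases. The pseudogene Gm28438 has 1 mismatch to mt-Nd3 in 345 bases, T3C, counted from the first base of mt-Nd3. A more diverged copy of mt-Co1, Gm13340, lies on chromosome 2. The first bases of each pair are shown on the strand of the gene, with mismatches in capitals, to show how many bases separate a mt read from a nuclear one.
mt-Atp6: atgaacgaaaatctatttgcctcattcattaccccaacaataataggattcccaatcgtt
Gm10925: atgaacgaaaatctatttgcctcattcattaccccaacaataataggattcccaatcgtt
mt-Nd3: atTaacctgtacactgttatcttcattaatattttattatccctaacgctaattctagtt
Gm28438: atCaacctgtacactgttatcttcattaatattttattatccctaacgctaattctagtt
mt-Co1: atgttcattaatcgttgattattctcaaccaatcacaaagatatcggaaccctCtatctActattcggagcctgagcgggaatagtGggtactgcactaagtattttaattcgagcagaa
Gm13340: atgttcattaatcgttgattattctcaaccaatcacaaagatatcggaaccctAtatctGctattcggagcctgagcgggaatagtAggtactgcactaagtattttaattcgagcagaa

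For 5 of the 7 genes, most of the counts of the pair stood on the nuclear copy. mt-Atp6, a subunit of the ATP synthase, held a mean of 4549 counts per library and Gm10925 held 45448. mt-Co3, a core subunit of cytochrome c oxidase, held 2518 and its copy Gm28437 held 46418. mt-Co2, another core subunit of the same enzyme, held 2685 and Gm28661 held 40430. In every library the copy took more than the mt gene for these 3 and for mt-Nd3 and mt-Nd4l, 2 small subunits of complex I, with copy shares from 75.2% (mt-Nd4l, lowest library) to 98.5% (mt-Nd3, highest library). Only part of the other 2 genes has a copy there, the last 483 of the 1545 bases of mt-Co1 and the first 876 of the 1378 of mt-Nd4. Their copies held a median of 6.79% and 8.34% of the pair. Which of the 2 loci gave these reads cannot be told apart, so the values of mt-Atp6, mt-Co2, mt-Co3, mt-Nd3 and mt-Nd4l are uncertain throughout. The copy was added in the fits of the 3 treatment comparisons in all libraries and in that of low RIN. The RIN slope, the batch comparison, the interaction and the fits in libraries chosen by RIN or batch were made without it. Less similar copies on chromosome 2 were not added to any value. Of these, Gm13340 (mt-Co1) held a mean of 13957 counts, Gm13341 (mt-Co2) 4342 and Gm13339 (part of mt-Nd2) 1680.

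**Figure D1:**
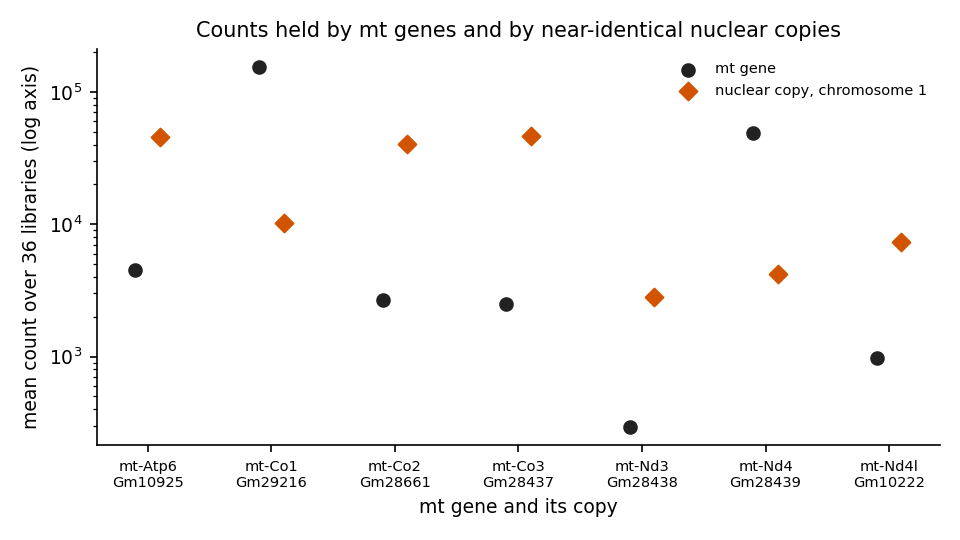
Mean count over 36 libraries (log axis) of 7 mt protein-coding genes (circles) and of their near-identical copies on chromosome 1 (diamonds). The copies of mt-Atp6, mt-Co2, mt-Co3, mt-Nd3 and mt-Nd4l stand above the genes, and those of mt-Co1 and mt-Nd4 below.

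The mt genes took a large part of every library. All 37 together held between 10.5% and 69.8% of the counts of a library, with a median of 32.5%. The 2 rRNA genes made up nearly all of it, between 9.54% and 66.9% (median 30.6%). The 13 protein-coding genes held between 0.802% and 3.48% (median 1.87%), without the counts on their chromosome 1 copies. Totals ranged from 12.1 to 82.4 M counts per library, and without the 2 rRNA genes from 7.08 to 71.4 M. Neuron markers summed to a median of 2662 CPM (counts per 1000000, scaled by TMM factors) in control libraries, astrocyte markers to 32.1 and microglia markers to 0.629.

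mt-Rnr1 (chrM:70-1024, the rRNA of the small subunit) and mt-Rnr2 (chrM:1094-2675, that of the large subunit) were counted in similar amounts. The number of mt-Rnr2 counts per mt-Rnr1 count lay between 0.838 and 1.68. Per kb of gene and M counts outside the rRNA genes, the median was 196093 for mt-Rnr1 and 165487 for mt-Rnr2. mt-Rnr2 contains 4 runs of 6 or more A and mt-Rnr1 contains 0. Whether such runs were captured in the poly(A) step was not tested.

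The tRNA genes, between 67 and 71 bases long in the 3 named here, were almost absent. In all 36 libraries together they had 31 counts, at most 6 in a library, and 18 libraries had 0, which allows a share of up to 2.1e-05% in the shallowest of those 18 (3 counts of the total, counting error only). mt-Tp had 16 counts in 13 libraries, mt-Tq 6 counts in 5 and mt-Tt 3 counts in 3. Another 4 tRNA genes had 1 or 2 counts each, and 15 had 0. Differences of the tRNA genes between the treatments were not detectable at this depth. With no filter on low counts, edgeR called 1 tRNA gene, mt-Tp, higher at low RIN in batch 2, beside 32% of all genes, and 2, mt-Tp and mt-Tq, lower in batch 2 than in batch 1, beside 12.1%, on at most 4 and 2 counts in a library.

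Among the protein-coding genes, mt-Co1, the catalytic subunit of cytochrome c oxidase, came first in every group. It held 33.3% ± 2.70 (SD, n = 36) of the mt mRNA counts. mt-Cytb, the one mitochondrially encoded subunit of complex III, held 20.99% ± 2.37. The complex I subunits mt-Nd5, mt-Nd4 and mt-Nd1 followed with 14.2% ± 1.12, 10.1% ± 1.06 and 9.49% ± 1.59. mt-Nd2 held 4.76% and mt-Nd6, the only one of the 13 read from the other strand, 2.94%. Each of the remaining 6 held under 2%, from 1.78% for mt-Atp8 to 0.0690% for mt-Nd3, and 5 of these 6 are the genes whose counts stand mostly on the chromosome 1 copy.

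Levels between genes were compared per kb of gene and M counts outside the rRNA genes. On that scale the median was 5832 for mt-Co1, 4365 for mt-Cytb, 2895 for mt-Nd1, 2351 for mt-Atp8, 2023 for mt-Nd5, 1907 for mt-Nd4, 1308 for mt-Nd6 and 1170 for mt-Nd2. mt-Atp6, mt-Co2 and mt-Co3 had medians of 379, 184 and 154. With the counts of the chromosome 1 copies added, their medians were 4027, 3545 and 3742, which puts them among the higher protein-coding genes. mt-Nd4l moved from 163 to 1483 and mt-Nd3 from 51.9 to 514. The overlapping pairs mt-Atp8 and mt-Atp6, mt-Atp6 and mt-Co3, mt-Nd4l and mt-Nd4, and mt-Nd5 and mt-Nd6 (on opposite strands) share bases, and the strand setting of the counting is not given in the sources used here.

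Batch 2 holds 6 low-RIN libraries (1.4 to 2.7, 2 in each group), which were compared with its other 12, whose RIN was 7.4 to 8.7. mt RNA was higher in the low-RIN libraries in both classes. The rRNA share of the counts was 44.4% and 66.9% in the DEX + RU-486 libraries, 57.1% and 58.6% in the DEX libraries and 43.0% and 48.4% in the control libraries of low RIN. It lay between 19.8% and 35.5% (median 30.6%) in the other 12, so the sets do not overlap. The mRNA share lay between 2.28% and 3.48% at low RIN and between 1.66% and 2.55% in the other 12, and here they overlap.

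**Figure D2:**
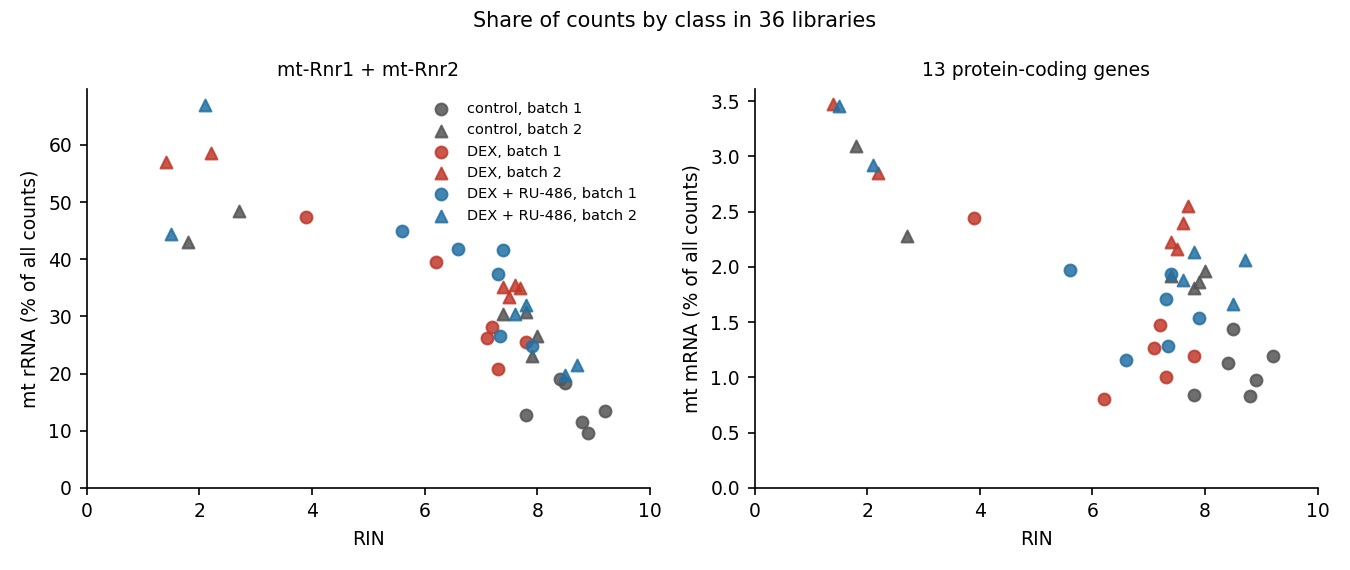
Share of all counts in the 2 mt rRNA genes (left) and the 13 mt protein-coding genes (right) against the RIN of the library, 1 point per library, coloured by group, with circles for batch 1 and triangles for batch 2. The 6 libraries with a RIN under 3 hold 43.0% to 66.9% mt rRNA, above the other 12 libraries of batch 2, and the batch 1 control libraries hold 9.54% to 19.1%.

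In edgeR's quasi-likelihood test with treatment in the model, all 15 tested members were higher at low RIN after Benjamini-Hochberg adjustment over 20355 genes, where 28.4% of all tested genes were higher. 12 of the 15 were above the other libraries in each of the 6 low-RIN libraries, beside 8.03% of all tested genes. mt-Rnr1 had the largest log2 fold change, 2.21 ± 0.19 (SE, adjusted p = 5e-09), and mt-Rnr2 had 1.55 ± 0.19 (adjusted p = 8.11e-07). Among the mRNAs the log2 fold change ran from 0.83 ± 0.15 for mt-Atp8 to 2.17 ± 0.21 for mt-Nd4l. With the copy added mt-Nd4l had 1.84 and mt-Co2 went from 2.07 to 1.27. The 15 members were still called higher, beside 5783 of 20348 genes.

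The members moved by different amounts at low RIN. mt-Rnr2 counts per mt-Rnr1 count lay between 0.838 and 1.04 in the 6 low-RIN libraries and between 1.31 and 1.68 in the other 12 of batch 2. DEX 12, with a RIN of 3.9 in batch 1, had 0.995. The other 17 libraries of batch 1 had 1.08 to 1.52.

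**Figure D3:**
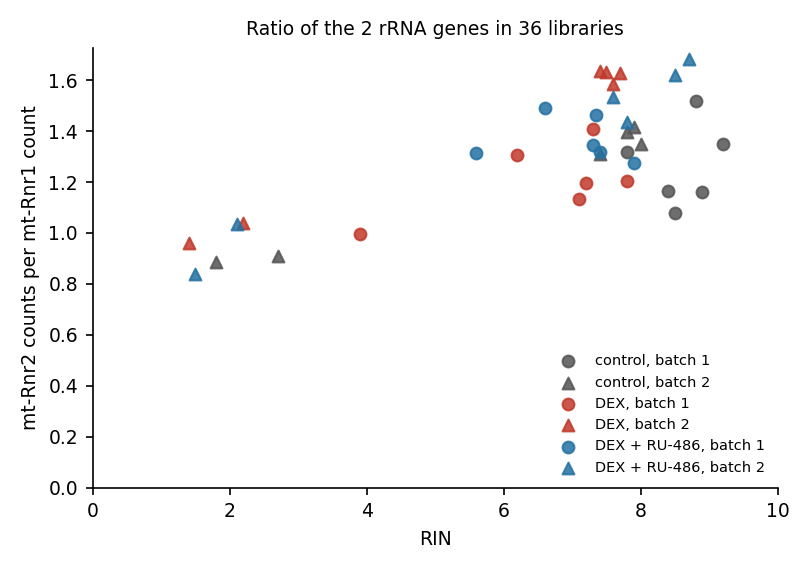
Counts of mt-Rnr2 per count of mt-Rnr1 against RIN, 1 point per library, coloured by group, with circles for batch 1 and triangles for batch 2. The libraries of RIN under 3 lie between 0.838 and 1.04, below the other libraries of batch 2 (1.31 to 1.68).

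Within the mt mRNA, mt-Cytb held 24.9% to 26.1% in the 6 low-RIN libraries and 18.1% to 21.2% in the other 12 of batch 2, which do not overlap. mt-Nd1 went the other way, with 5.87% to 7.53% at low RIN and 9.66% to 11.2% in the others. mt-Co1 held 27.1% to 30.6% at low RIN and 30.6% to 35.02% in the others, meeting at the edge. mt-Nd5 held 14.4% to 16.3% and 13.7% to 16.2%, and these ranges overlap almost fully. Composition was described without a test.

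**Figure D4:**
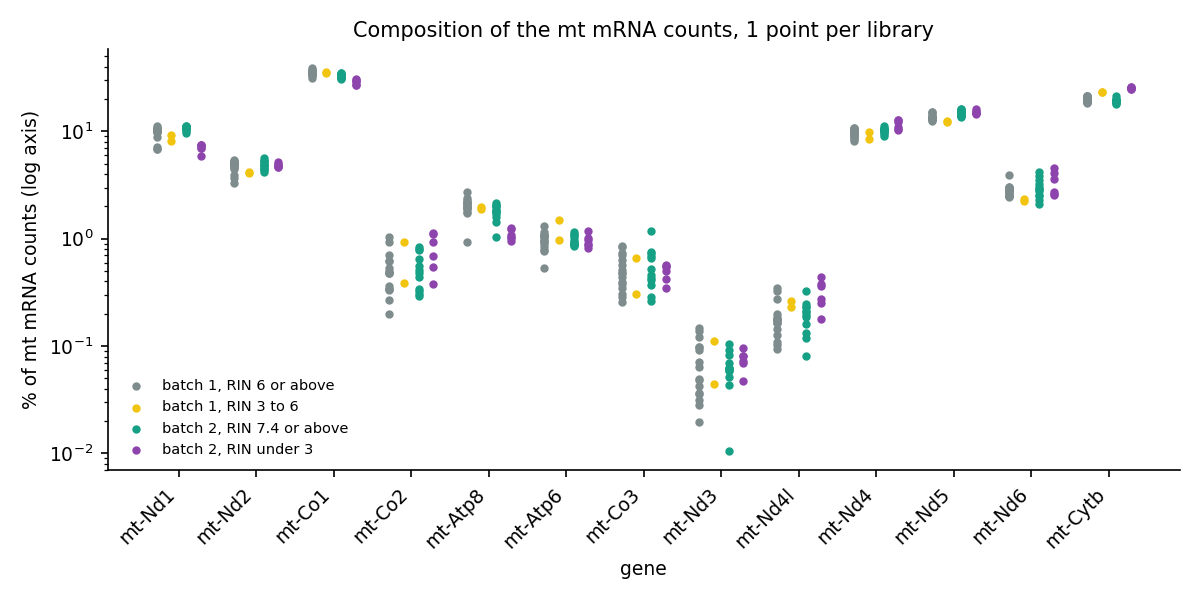
Percent of the mt mRNA counts (log axis) held by each of the 13 protein-coding genes, 1 point per library, in 4 sets by batch and RIN. mt-Cytb is higher and mt-Nd1 lower in the batch 2 libraries of RIN under 3 than in those of RIN 7.4 or above.

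In batch 1 the RIN ran from 3.9 to 9.2. With treatment in the model, all 15 fitted slopes on RIN were negative, from -0.53 (mt-Nd4l and mt-Rnr1) to -0.30 (mt-Nd1) log2 units per unit of RIN. 12 of the 15 were called lower with rising RIN in edgeR's test, where 7.92% of all tested genes were. Without DEX 12 the number was 2, beside 5.7% of all genes. DESeq2 called 8, beside 9.88% of all genes. With no treatment term edgeR called 15, beside 15.5%, and with no filter on low counts 14, beside 3.41%. Among libraries with a RIN of 6 or above, only mt-Rnr1 (-0.63 ± 0.19, adjusted p = 0.0424) and mt-Rnr2 (-0.67 ± 0.17, adjusted p = 0.0168) were called, beside 5.65% of all genes, and 8 of the 13 mRNA slopes were positive. Some markers fell with rising RIN in the same model of batch 1, beside the 7.92% of all genes. They were 4 of 4 of dividing cells, 4 of 6 of the oligodendrocyte lineage, 2 of 3 endothelial and 2 of 6 astrocyte markers. Of the 8 neuron markers 1 was higher and 1 lower, and 0 of 3 tested microglia markers were called. Over all genes 1324 of 20355 were higher. The part of these cell types in the mt slopes was not tested.

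Batches were compared in the 28 libraries with a RIN of 6 or above. 12 of the 13 mRNAs were higher in batch 2 than in batch 1 in edgeR's test, where 23.4% of all tested genes were. Their log2 fold changes ran from 0.42 ± 0.16 for mt-Atp8 to 0.78 ± 0.15 for mt-Nd1. mt-Nd3 (0.53 ± 0.25, adjusted p = 0.0821), mt-Rnr1 (0.08 ± 0.21) and mt-Rnr2 (0.31 ± 0.21) did not pass. Among control libraries alone 14 of the 15 were called, beside 21.2% of all genes, with a RIN of 7.8 to 9.2 in batch 1 and of 7.4 to 8.0 in batch 2. The nuclear subunits of the same complexes went the other way, with 70 of 72 lower in batch 2, where 24.7% of all genes were lower, and a median of -0.42 beside 0.01 over all tested genes. Cell type markers moved between the batches too. Of the oligodendrocyte lineage markers 5 of 6 were higher in batch 2 (median 1.30), of the dividing cell markers 2 of 4 and of the astrocyte markers 1 of 6, and of the 8 neuron markers 5 were lower and 2 higher. Their part in the mt difference was not tested.

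DEX was compared with control in all 36 libraries with batch in the model, which addresses whether 72 h of receptor activation goes with a different amount of mt RNA. All 15 fitted changes were positive, with a median of 0.72 beside -0.01 over all genes, but 0 of the 15 passed edgeR's adjusted threshold, where 0.0147% of all genes were called higher. At an unadjusted p under 0.05, 13 of the 15 were higher beside 6.86% of all genes, and DESeq2 called 1 member beside 1.15%. With the copies added, 15 of the 15 were higher at an unadjusted p under 0.05, beside 1393 of 20348 genes. By the adjusted p 0 were, beside 3 of 20348. The largest change was that of mt-Rnr2, 1.10 ± 0.34 (adjusted p = 0.101), followed by mt-Nd3, 1.08 ± 0.39 (0.46 with its copy added), and mt-Rnr1, 1.07 ± 0.41. The smallest was mt-Co3, 0.44 ± 0.33 (0.60 with its copy added). Without the low-RIN library control 20, which held the highest mt mRNA share of the control libraries, edgeR called mt-Rnr2, mt-Atp8, mt-Nd3, mt-Nd5 and mt-Nd6, 5 of 15 beside 3.56% of all genes. Without control 19, also of low RIN, it called mt-Rnr2, beside 0.771%.

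DEX + RU-486 against control uses the same control libraries. All 15 fitted changes were positive, with a median of 0.71 beside 0.02 over all genes, and 0 passed edgeR's adjusted threshold (0% of all genes higher). At an unadjusted p under 0.05, 12 of the 15 were higher beside 4.19% of all genes, and DESeq2 called 1 beside 0.231%. With the copies added, 15 of the 15 were higher at an unadjusted p under 0.05, beside 849 of 20348 genes. By the adjusted p 0 were, beside 0 of 20348. mt-Rnr2 had 1.20 ± 0.34 (adjusted p = 0.184). Without control 20 edgeR called mt-Rnr2, beside 0.693% of all genes.

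DEX + RU-486 against DEX gave changes from -0.22 ± 0.42 (mt-Co2) to 0.10 ± 0.33 (mt-Rnr2), with 0 called by edgeR in either direction, 0 by DESeq2 and 0 at an unadjusted p under 0.05. Over all genes 0% were called higher and 1.44% were higher at an unadjusted p under 0.05. The SE of these changes lay between 0.24 and 0.42. With the copies added the changes ran from -0.10 to 0.14, and mt-Co2 was at -0.01.

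**Figure D5:**
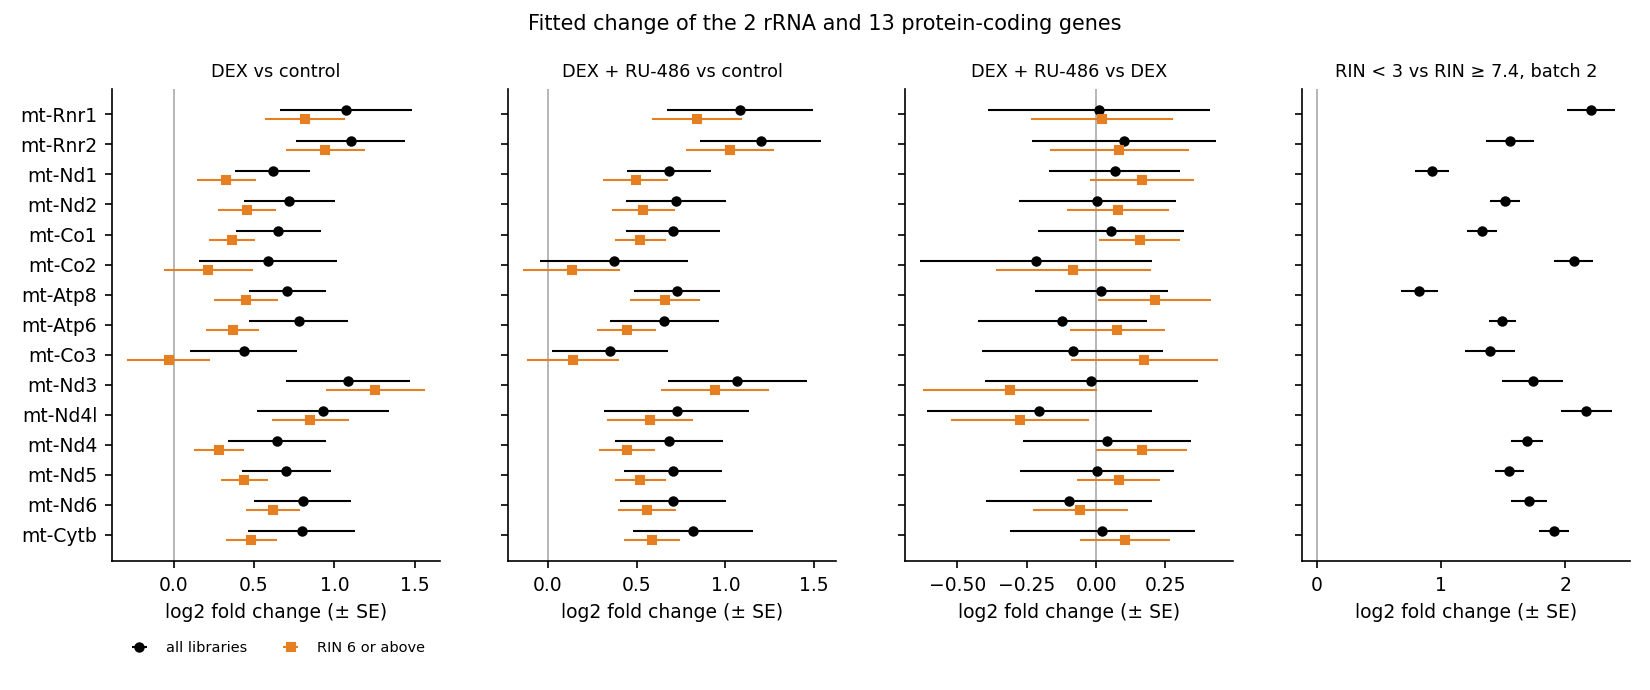
Fitted log2 fold change (± SE, edgeR) of the 2 rRNA and 13 protein-coding mt genes in 4 comparisons, in all libraries of the comparison (black) and with libraries of RIN 6 or above only (orange). Changes against control are positive for all 15 genes in all libraries, those of DEX + RU-486 against DEX lie around 0, and all 15 are positive at low RIN.

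With RIN as a covariate in all 36 libraries, the median change of the 15 members fell from 0.72 to 0.35 for DEX and from 0.71 to 0.43 for DEX + RU-486. Only mt-Rnr2 was called higher by edgeR in either comparison, beside 0.919% and 0.295% of all genes. With the 8 libraries under a RIN of 6 left out, 28 remained, the SE fell, and the medians were 0.45 and 0.54. Members were called higher in both comparisons with control. For DEX they were mt-Rnr1, mt-Rnr2, mt-Nd3, mt-Nd4l, mt-Nd5, mt-Nd6 and mt-Cytb, 7 of 15 beside 7.83% of all genes. mt-Rnr2 had 0.94 ± 0.24 (adjusted p = 0.00639), mt-Nd6 0.62 ± 0.17 (adjusted p = 0.00895) and mt-Cytb 0.48 ± 0.16 (adjusted p = 0.0277). mt-Co3 was at -0.03 ± 0.26. For DEX + RU-486 they were mt-Rnr1, mt-Rnr2, mt-Co1, mt-Atp8, mt-Nd3, mt-Nd5, mt-Nd6 and mt-Cytb, 8 of 15 beside 2.99% of all genes. Against each other the 2 treatments had 0 members called and 0% of all genes called higher.

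The class shares and the RIN behind these calls are given by batch. In batch 1 the rRNA share of the 6 control libraries was 9.54% at the lowest, 13.04% at the median and 19.1% at the highest. It was 20.8%, 27.1% and 47.4% in the 6 DEX libraries and 24.8%, 39.5% and 44.97% in the 6 DEX + RU-486 libraries. Neither treated group overlaps the control libraries. The RIN moved with the treatment in this batch, 7.8 to 9.2 in control, 3.9 to 7.8 in DEX and 5.6 to 7.9 in DEX + RU-486, so RIN and treatment can hardly be told apart here. At the same RIN of 7.8, control 1 had 12.7% and DEX 11 had 25.5%, and DEX + RU-486 14, with a RIN of 7.9, had 24.8%. These are single libraries of different depth, and their differences were not tested. The depth moved with the treatment too, with 24.2 to 82.4 M counts in control, 12.1 to 22.3 M in DEX and 17.4 to 26.7 M in DEX + RU-486.

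The mRNA share separated the groups of batch 1 less than the rRNA share did. It was 0.833% at the lowest, 1.05% at the median and 1.44% at the highest in control, 0.802%, 1.23% and 2.44% in DEX, and 1.16%, 1.62% and 1.97% in DEX + RU-486, and all 3 groups overlap. The rRNA counts per 100 mRNA counts were accordingly 975 to 1693 in control and 1903 to 4927 in DEX, which do not overlap. In DEX + RU-486 they were 1616 to 3614. In batch 2 at a RIN of 6 or above they were 1235 to 1694 in control and 1371 to 1581 in DEX, which overlap. Over all 6 libraries of each group and batch, the median was 1332 in control and 2066 in DEX in batch 1, and 1490 and 1566 in batch 2.

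In batch 1 alone edgeR called 8 members higher in DEX than in control, beside 8.99% of all genes, and 4 with a RIN of 6 or above, beside 9.26%. Those 4 were mt-Rnr1 (1.27 ± 0.28), mt-Rnr2 (1.28 ± 0.27), mt-Nd3 and mt-Nd4l. For DEX + RU-486 against control it called 12 members, beside 6.92% of all genes, and 13 with a RIN of 6 or above, beside 6.36%. mt-Rnr2 was the one member whose 6 DEX libraries all lay above the 6 control libraries, beside 3.2% of all genes. For DEX + RU-486 there were 5 such members, mt-Rnr1, mt-Rnr2, mt-Nd4l, mt-Nd6 and mt-Cytb, beside 1.99% of all genes. In batch 2 alone, with all 6 libraries of each group, edgeR called 0 members higher than in control for either treatment, beside 0 of 20355 genes. At an unadjusted p under 0.05 in edgeR, 2 members were higher in DEX and 0 in DEX + RU-486, beside 228 and 96 of 20355 genes.

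The split of the libraries with a RIN of 6 or above by batch was chosen after the data had been seen. In batch 2 the 4 control, 4 DEX and 4 DEX + RU-486 libraries with a RIN of 6 or above had a RIN of 7.4 to 8.0, 7.4 to 7.7 and 7.6 to 8.7. The rRNA share was 30.5%, 30.7%, 22.99% and 26.5% in control. It was 35.1%, 33.5%, 35.5% and 34.98% in DEX, all above control. It was 30.5%, 31.9%, 19.8% and 21.5% in DEX + RU-486, where the pair with the higher RIN, 8.5 and 8.7, had the lower share. The mRNA share was 1.81% to 1.96% in control, 2.16% to 2.55% in DEX and 1.66% to 2.13% in DEX + RU-486, so DEX lay above both of the others.

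In these 12 libraries 11 of the 15 members were higher in each DEX library than in each control library, beside 4.47% of all genes, and 7 were higher in each DEX library than in each DEX + RU-486 library, beside 3.93%. Members higher in each DEX + RU-486 library than in each control library numbered 0, beside 2.8% of all genes. edgeR called mt-Nd2 (0.76 ± 0.11, adjusted p = 0.0102), mt-Nd5 (0.67 ± 0.09, adjusted p = 0.00397), mt-Nd6 (1.09 ± 0.10, adjusted p = 0.000232) and mt-Cytb (0.58 ± 0.11, adjusted p = 0.0282) higher in DEX than in control, 4 of 15 beside 0.329% of all genes. DEX + RU-486 libraries had less of the same 4 genes than DEX libraries by the adjusted test, beside 0.811% of all genes, mt-Nd6 by -0.81 ± 0.10 (adjusted p = 0.00419). The 2 comparisons share the DEX libraries. Over the 15 members the median change of DEX + RU-486 against DEX was -0.55 in these libraries and 0.54 in the batch 1 libraries with a RIN of 6 or above. There 12 of the 15 were positive and 0 were called, and 7 were higher at an unadjusted p under 0.05 beside 2.36% of all genes, among them mt-Nd2 (0.65 ± 0.23), mt-Nd5 (0.57 ± 0.17) and mt-Cytb (0.58 ± 0.19). The difference of this change between the batches was not tested. DEX + RU-486 against control had 0 called in edgeR (0% of all genes higher), while the unadjusted threshold of 0.05 was passed by 1 of the 15 members upwards and 1 downwards, beside 3.75% and 3.8% of all genes. mt-Rnr2 (0.62 ± 0.17, adjusted p = 0.0991) and mt-Rnr1 (0.37 ± 0.20) did not pass in DEX.

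mt-Nd6 (chrM:13552-14070, minus strand), a membrane subunit of complex I, stood out in batch 2 at a RIN of 6 or above. Its CPM was 337 at the lowest, 378 at the median and 403 at the highest in the 4 control libraries, 685, 821 and 836 in the 4 DEX libraries, and 362, 467 and 507 in the 4 DEX + RU-486 libraries. These DEX libraries lay above the other 8. In batch 1 with a RIN of 6 or above it was 182 to 300 in control, 201 to 388 in DEX and 330 to 597 in DEX + RU-486, where the DEX libraries overlap both other groups. The interaction of DEX with batch at a RIN of 6 or above was 0.94 ± 0.23 for mt-Nd6 (edgeR, adjusted p = 0.0171), and mt-Nd6 was the one member of 15 called, beside 3.18% of all genes called in that direction. Over all 36 libraries the interaction was 0.52 ± 0.60 and 0 of the 15 were called. mt-Nd6 overlaps the end of mt-Nd5 on the other strand.

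mt-Cytb and mt-Nd5 followed the same order in batch 2 at a RIN of 6 or above. The CPM of mt-Cytb was 2837 to 3023 in control, 4163 to 4627 in DEX and 2260 to 3490 in DEX + RU-486. That of mt-Nd5 was 2036 to 2232, 3079 to 3750 and 1999 to 2611. For both, DEX lay above in these libraries and the other 2 groups overlapped. mt-Co2 and mt-Co3 did not follow, with -0.60 ± 0.21 and -0.69 ± 0.26 for DEX against control, and both are genes whose counts stand mostly on the nuclear copy. The same holds for the counts of mt-Atp6 and mt-Nd3, yet each DEX library lay above each control library for both. The part of the copies in these changes was not tested.

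Genes that act on the mitochondrial genome from the nucleus were described by 2 lists. In the list of 40 genes for transcription, processing, replication and biogenesis, 0 were called by edgeR in DEX against control in all libraries, with a median of -0.05 beside -0.01 over all genes. At a RIN of 6 or above 0 were higher and 3 lower, where 11.9% of all genes were lower, and Lrpprc, an RNA-binding protein that stabilises mt mRNAs, had the smallest p (-0.24, adjusted p = 0.00982). Of 72 nuclear subunits of complexes I, III, IV and V and related proteins, 2 were higher and 10 lower in DEX against control at a RIN of 6 or above, beside 7.83% of all genes higher and 11.9% lower. Their median was -0.06 beside 0.01, and Atp5b, the catalytic subunit of the ATP synthase, was at -0.32 (adjusted p = 0.00343). In DEX + RU-486 against control at a RIN of 6 or above, 0 of the 72 were higher and 14 lower (median -0.12), where 5.87% of all genes were lower. At low RIN in batch 2, where 28.4% of all genes were higher and 26.8% lower, 46 of the 72 were higher and 3 lower (median 0.49), and of the 40 genes 6 were higher and 18 lower (median -0.41).

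Markers of cell types and receptor targets moved in the same comparison. At a RIN of 6 or above in DEX against control, 7.83% of all genes were higher and 11.9% lower. There 5 of 6 oligodendrocyte lineage markers, 3 of 6 astrocyte markers and 2 of 4 markers of dividing cells were higher. Of the neuron markers 4 of 8 were lower, and 0 of 3 tested microglia and 0 of 3 endothelial markers were called. Summed over the list, oligodendrocyte lineage markers lay between 57.6 and 2155 CPM in control, 455 and 2075 in DEX, and 127 and 947 in DEX + RU-486. At low RIN in batch 2, 6 of 6 oligodendrocyte lineage, 4 of 6 astrocyte, 3 of 3 endothelial, 3 of 4 dividing cell and 2 of 3 tested microglia markers were higher, beside 28.4% of all genes, and of the 8 neuron markers 4 were higher and 4 lower. The part of these cell types in the mt results was not tested. Of 5 glucocorticoid receptor targets 2 were higher in DEX at a RIN of 6 or above, beside 7.83% of all genes. Zbtb16 was among them (0.70, adjusted p = 0.0314 in edgeR). The lowest of the 5 was Fkbp5, a target induced by the receptor, at -0.10. Over all libraries 0 were called. In DEX + RU-486 against control at a RIN of 6 or above, Fkbp5 was called lower (-0.44, adjusted p = 0.00982 in edgeR). It was the 1 target of 5 called, beside 5.87% of all genes called lower, and 3 of the 5 were positive. In these cultures fewer cells of a type and less RNA per cell cannot be told apart.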

How the data were processed

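Counts of 36 RNAseq libraries were used, taken from 1 table in which the authors deposited whole-number counts of reads per gene without normalization. The submitters' processing notes name HISAT2 2.1.0, Subread 1.5.0-p2 and GRCm38. The paper also describes an alignment without mismatches from which reads at several loci were discarded. It states that the reads of these cultures went through its described pipeline. Whether the deposited table comes from that alignment is not said of the table itself. Symbols, positions and sequences came from GENCODE M21 (55227 identifiers matched, and 5 transgene entries were left without one).

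Genes with a mean count above 5 (20355) were tested with edgeR 4.0.16 (TMM, quasi-likelihood, batch as a term, 3 groups together) in R 4.3.3, and adjusted over all tested genes. Calls are at an adjusted p under 0.05. CPM values are scaled by TMM, so those of the rRNA genes can sum to over 1000000. SE is the log2 fold change over the square root of F. Class shares and composition got no test. Nuclear copies were searched with blastn 2.17.0 (at least 100 aligned bases). The calculations were tested on simulated data. Of 100 changes of 4-fold, 81 were recovered in DEX against control and 77 at low RIN in batch 2. Of 100 changes of 2-fold, 57 and 58 were recovered, so many changes of that size would be missed. Unchanged genes called numbered 8 and 6.

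Members, gene lists and tests were chosen with earlier results of these data known. The genes named are all 13 mt mRNAs and both rRNAs, the 3 tRNAs with the highest mean, and per list the gene with the smallest p. Replicates are libraries, whose origin in separate cultures the labels do not state, so p-values measure only the spread between libraries. Depth was 12.1 to 82.4 M counts. Alternatives were DESeq2 1.42.0, other scalings and filters, RIN as a covariate, subsets by batch and RIN, and leaving out each library. The fits in batch 1 and in batch 2 at a RIN of 6 or above and those with the chromosome 1 copy added, 3 alternatives, were chosen after seeing the data.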

Additional observations from a re-analysis of the deposited data

Results flagged for a closer look

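In 114 sets of 6 libraries (group by batch) the highest or lowest library was compared with the rest. By Dixon's criterion 20 sets had a library far from the others. For independent sets of like libraries chance gives about 1 in 20. These sets hold many quantities of the same libraries, and those of batch 2 mix low-RIN libraries with others. That rate therefore cannot be set against the 20. DEX 12 of batch 1, with a RIN of 3.9, was the highest of its set for mt-Nd1 (2778 CPM), mt-Nd2 (1444), mt-Co1 (11980), mt-Co2 (319), mt-Atp8 (647), mt-Atp6 (514), mt-Nd4 (3418), mt-Nd5 (4177), mt-Nd6 (775) and mt-Cytb (8058). DEX 26 of batch 2, with a RIN of 1.4, was the highest for mt-Atp8 (941 CPM) and mt-Nd6 (3377). DEX + RU-486 32, with a RIN of 2.1, was the highest for mt-Rnr2 (792459 CPM). DEX + RU-486 18, with a RIN of 5.6, was the highest for mt-Nd4l (63.5 CPM). Control 20, with a RIN of 1.8, was the highest for the mt mRNA share (3.10% of counts) and for mt-Nd1 (2966 CPM).

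Libraries of a RIN above 6 also stood apart. DEX 7 had 4927 mt rRNA counts per 100 mt mRNA counts, and the next library of its set 2134. DEX + RU-486 13 had 3614, and the next 2278. Control 3 had 124 CPM of mt-Atp6, and DEX 11 had 3.31 CPM of mt-Nd3, the lowest of its set. DEX 7 and DEX + RU-486 13 have the lowest RIN among the batch 1 libraries of their groups with a RIN of 6 or above, 6.2 and 6.6.

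The change of mt-Nd6 under DEX differed between the batches in libraries with a RIN of 6 or above, by 0.94 on the log2 scale (edgeR interaction, adjusted p = 0.0171, batch 2 higher).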

How the results depend on the processing

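Members called higher in DEX against control numbered 0 of 15, 1 with DESeq2, 1 with RIN as a covariate and 7 at a RIN of 6 or above. By batch they numbered 8 in batch 1 alone and 0 in batch 2 alone, and 4 in each batch at a RIN of 6 or above. When each library was left out they numbered 0 to 5 (1 without control 19 and 5 without control 20). For DEX + RU-486 against control they numbered 0, and 1 with DESeq2, 1 with RIN as a covariate and 8 at a RIN of 6 or above. There were 12 in batch 1 alone and 0 in batch 2 alone. At a RIN of 6 or above there were 13 in batch 1 and 0 in batch 2. By library there were 0 to 1. For DEX + RU-486 against DEX, 4 were called lower in batch 2 at a RIN of 6 or above and 0 otherwise. The slope on RIN had 12 lower, 2 at a RIN of 6 or above, 8 with DESeq2, 15 with no treatment term, 14 with no filter on low counts, and 2 to 14 by library (2 without DEX 12). Between batches, 2 were lower with no filter on low counts and 0 otherwise.

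Of the single genes, mt-Co3 in DEX against control turned to -0.0313 at a RIN of 6 or above. In DEX + RU-486 against DEX, values near 0 turned: with nuclear scaling mt-Rnr1 to -0.0135, mt-Nd2 to -0.019, mt-Nd5 to -0.0201 and mt-Cytb to -0.002, with DESeq2 mt-Rnr1 to -0.0014, mt-Nd2 to -0.0028 and mt-Nd5 to -0.0049, at a RIN of 6 or above mt-Atp6 to 0.0763 and mt-Co3 to 0.174, and with the copy added mt-Co3 to 0.1367, mt-Nd3 to 0.0864 and mt-Nd4l to 0.0803. Of the 15, 9 were positive and 6 negative in the main fit. With no batch term 12 were negative, with only the 2 groups compared 11, and in batch 2 alone 13. With RIN as a covariate 12 were positive, and in batch 1 alone 11. The cause was not tested. Against control, not all 15 changes stayed positive: with RIN as a covariate 2 were negative for DEX (lowest -0.06) and mt-Co2 (-0.04) for DEX + RU-486, in batch 2 alone 2 for DEX (lowest -0.33), and in batch 2 at a RIN of 6 or above 2 for DEX (lowest -0.69) and 8 for DEX + RU-486 (lowest -0.52). Differences in the class shares are given by batch, without a test. The rRNA share was higher in DEX + RU-486 than in control by 22.1 percentage points in batch 1 and by 2.14 in batch 2, and in DEX by 17.1 and 8.77. DEX + RU-486 minus DEX was 4.96 and -6.63 for rRNA and 0.23 and -0.26 for mRNA. The SD within group and batch, 11.1 for rRNA and 0.492 for mRNA, includes the low-RIN libraries. All 15 calls at low RIN held under the alternatives run with 15 members tested. No paired analysis was possible because no 2 groups share a replicate number. Counts of mt-Nd3 and the tRNAs are low, which limits their precision.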
